A study of Mus musculus with 2 samples.

Results

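Autophagy is the process by which a cell wraps cytoplasm, organelles or protein aggregates in a new membrane, the autophagosome, and delivers them to the lysosome for breakdown. A kinase complex around ULK1 starts the process, a lipid kinase complex around Beclin 1 marks the membrane, and a pair of ubiquitin-like conjugation systems attach ATG8 proteins (the LC3 and GABARAP proteins) to it. In red cell development, autophagy is known for clearing mitochondria and ribosomes from maturing cells. TFEB, TFE3 and FOXO3 are transcription factors known to activate genes of the pathway and of the lysosome, and GATA1 and FOXO3 are known to raise autophagy genes as erythroid cells mature.

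The 36 autophagy genes described here are a fixed list of core genes and of these 3 regulators, found by gene symbol among 43346 annotated genes. Their RNA was measured in G1E, an immortal line of mouse cells, which the labels give as Gata1-, male, postnatal and of the erythroid progenitor stage. G1E cells are known as a model that lacks the function of the erythroid regulator GATA1 and does not mature, and a line is no sample of normal tissue. Gata1 RNA itself was present, at 48.0 TPM in replicate 1 and 46.6 TPM in replicate 2, and RNA level does not show whether the protein is made. Polyadenylated RNA was sequenced from both ends in 2 libraries, replicate 1 with 61982618 expected counts over genes and replicate 2 with 80658620. Both belong to 1 group, so the data hold levels and ratios within a library and no comparison of conditions. The labels number them as biological replicates but cite the same cell sample for both, so the spread between them may be technical. Of 8 erythroid progenitor markers looked for, all 8 were at 83.3 TPM or more, and their summed level was 4196 TPM in replicate 1 and 4060 TPM in replicate 2. Of 8 macrophage markers only Cd68 reached 1 TPM, with a list total of 2.43 and 2.52 TPM, and the 4 lymphocyte markers summed to 0.03 and 0.04 TPM.

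Levels are in TPM (counts divided by effective transcript length and scaled to a fixed library total), a unit meant for setting genes side by side. Gene TPM also depends on the lengths of the transcript models that reads were assigned to, so orders between genes can change. Becn1, for example, was at rank 3 by gene TPM and at rank 16 with counts divided by its longest coding transcript. The word detected is used for genes that reached 1 TPM in each library. Of the 36 autophagy genes, 32 were detected (88.9%), against 40.0% of all 21474 protein-coding genes. The 32 detected autophagy genes had medians of 17.9 TPM (replicate 1) and 17.6 TPM (replicate 2), against 17.0 and 19.0 TPM for the 8581 detected protein-coding genes. The detected autophagy genes thus sat close to the middle of the genes these cells express. Together the 36 genes held 1221 TPM in replicate 1 and 1309 TPM in replicate 2, which is 0.122% and 0.131% of the library's TPM. The 4 genes not detected were Atg9b, Atg10, Atg4a and Atg4c. In bulk RNA, a low level in every cell and expression in few cells cannot be told apart.

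**Figure D1:**
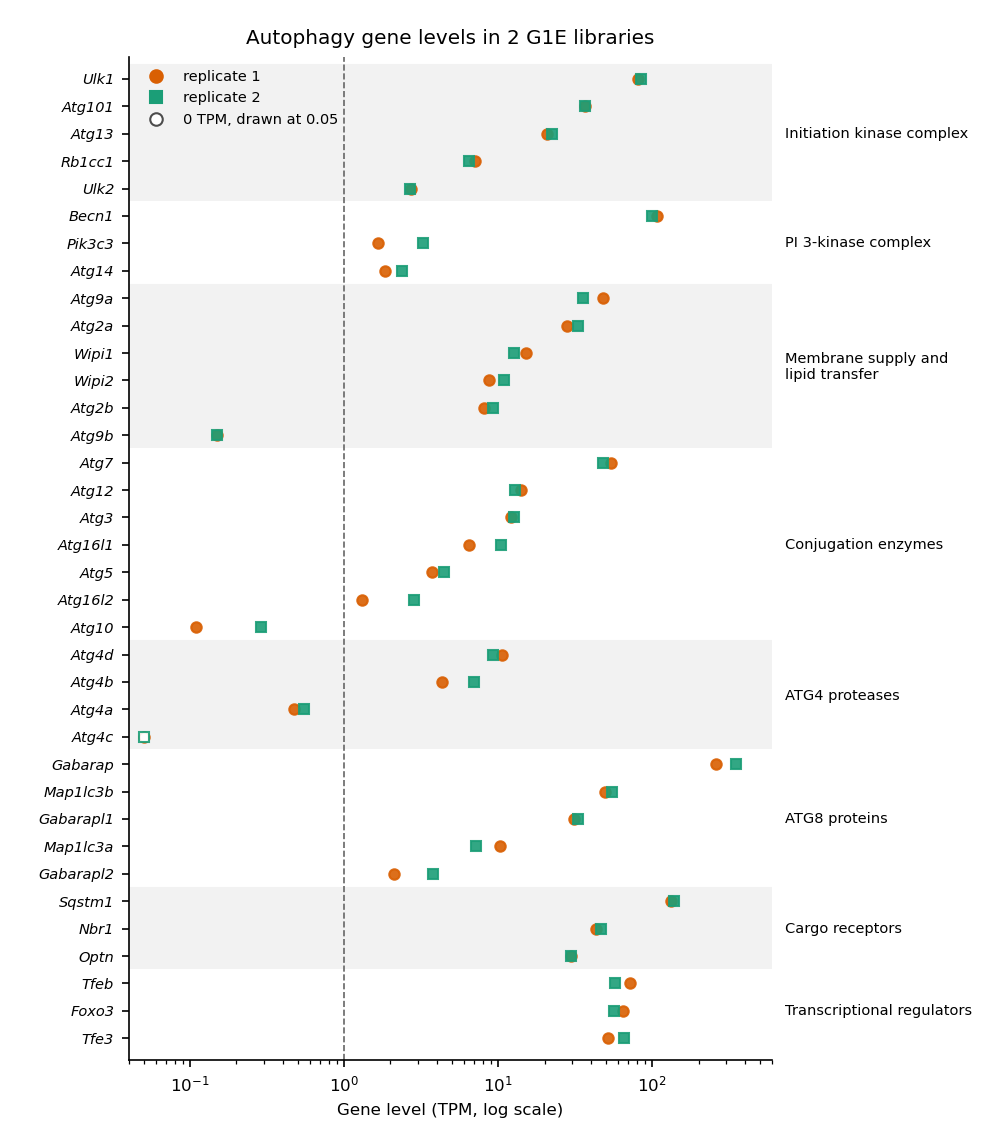
Level of each of the 36 autophagy genes in TPM on a log axis, grouped by role, with replicate 1 as circles and replicate 2 as squares; the dashed line marks 1 TPM and open symbols are genes at 0 TPM, drawn at 0.05. Gabarap stands highest at 261 and 348 TPM, and Atg9b, Atg10, Atg4a and Atg4c lie left of the line in both libraries.

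Each role in the pathway had at least 1 gene detected, but the members of a role differed widely. In the initiation complex, Ulk1, the kinase that starts autophagosome formation (chr5:110784488-110810097, minus strand, mm10), had 81.3 TPM in replicate 1 and 85.1 TPM in replicate 2. Its paralogue Ulk2 had 2.73 and 2.68 TPM. Ulk1 was therefore 29.8-fold above Ulk2 in replicate 1 and 31.7-fold in replicate 2. The log2 ratio was 4.94 ± 0.06 (SD, n = 2). Both genes had nearly all of their TPM on coding transcripts, and this ratio was 4.96 over coding transcripts and 4.95 with counts divided by the longest coding transcript. Atg101 had 36.6 and 36.7 TPM and Atg13, the regulatory subunit that Atg101 binds, had 20.6 and 22.3 TPM. Rb1cc1, which encodes the scaffold FIP200, had 7.11 and 6.42 TPM.

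By gene TPM the lipid kinase complex was uneven. Becn1, which encodes the regulatory subunit Beclin 1, had 107 TPM in replicate 1 and 100.1 TPM in replicate 2, rank 3 of the 36 genes. Pik3c3, the catalytic subunit VPS34, had 1.65 and 3.27 TPM. Atg14, the subunit that directs the complex to forming autophagosomes, had 1.83 and 2.37 TPM. The catalytic and targeting subunits were thus among the lowest detected genes on the list, at ranks 30 and 31, while the high level of Becn1 rested on short transcript models. Over coding transcripts Becn1 had 1.12 and 3.77 TPM, Pik3c3 1.24 and 1.09 TPM, and Atg14 1.83 and 2.37 TPM. By that measure Becn1 was below both in replicate 1 and above both in replicate 2. With counts divided by the longest coding transcript Becn1 was above both in each library, at 11.99 and 12.37 TPM.

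Among the genes for membrane supply and lipid transfer, Atg9a, the lipid scramblase of the vesicles that seed the autophagosome, had 47.7 TPM in replicate 1 and 35.3 TPM in replicate 2. Counts divided by its longest coding transcript gave 19.4 and 20.8 TPM. Its paralogue Atg9b had 0.15 TPM in each library. Atg9a shares 1832 exon bases on the same strand with the gene Gm29253, which had 20.1 and 16.0 TPM, so the division of reads between both genes is uncertain. Of the lipid transfer proteins, Atg2a had 28.0 and 32.7 TPM and Atg2b had 8.14 and 9.26 TPM, a log2 ratio of Atg2a to Atg2b of 1.80 ± 0.03 (SD, n = 2). Atg2a was above Atg2b in each library. Wipi1 and Wipi2 encode proteins that bind the lipid made by VPS34. Wipi2 had 8.75 and 10.9 TPM and Wipi1 had 15.2 and 12.7 TPM. Their log2 ratio, Wipi2 over Wipi1, was -0.51 ± 0.40 (SD, n = 2), and it was 0.18 in replicate 2 when counts were divided by the longest coding transcript, so their order was not settled.

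The conjugation genes differed widely. Atg7, the activating enzyme of both conjugation systems (chr6:114643097-114860614, plus strand), had 54.0 TPM in replicate 1 and 47.9 TPM in replicate 2. Atg3, which transfers ATG8 proteins, had 12.1 and 12.7 TPM, and Atg12, the ubiquitin-like modifier of ATG5, had 14.0 and 12.9 TPM. Atg5 had 3.72 and 4.47 TPM. Atg16l1, the partner that brings the ATG12 and ATG5 conjugate to the membrane, had 6.50 and 10.4 TPM, against 1.31 and 2.83 TPM for its paralogue Atg16l2. Atg16l1 was 4.96-fold above Atg16l2 in replicate 1 and 3.67-fold above it in replicate 2 by gene TPM. Over coding transcripts alone, Atg16l1 had 5.22 and 9.56 TPM, against 0.64 and 0.96 TPM for Atg16l2, so the distance was larger. The lowest conjugation gene was Atg10, the enzyme that transfers ATG12 to ATG5, at 0.11 and 0.29 TPM from 9 and 30 counts. Of the conjugation genes Atg10 alone was under 1 TPM.

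ATG4 proteases trim newly made ATG8 proteins and later release them from membranes. Atg4d had 10.5 TPM in replicate 1 and 9.25 TPM in replicate 2, and Atg4b, known as the main protease for LC3, had 4.34 and 7.01 TPM. Atg4d was higher than Atg4b in each library. Atg4d shares 1405 exon bases with Kri1 on the opposite strand, and Kri1 had 45.5 and 57.1 TPM. Whether the counting used strand is not given in the sources used here, so reads of both genes may not be told apart. Atg4a had 0.47 and 0.55 TPM. Atg4c had 0 counts in both libraries, which allows up to 3 counts in each, or 0.0484 CPM (counts scaled to the library's total) in replicate 1 and 0.0372 in replicate 2 (counting error only).

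ATG8 proteins are made as precursors, and an ATG4 protease exposes a glycine near their end that is then joined to the membrane lipid. The coding ends of the 3 GABARAP genes are shown because this glycine codon, in capitals, is the point where they are trimmed. The letters were read from the GENCODE M21 transcripts Gabarap-201, Gabarapl1-201 and Gabarapl2-201 (GRCm38), run 5′ to 3′ on the plus strand and stop before the stop codon.
Gabarap, chr11:69994498-69994521: agtgatgaaagcgtctatGGTctg
Gabarapl1, chr6:129541141-129541164: agtgatgaaagtgtctatGGAaaa
Gabarapl2, chr8:111952379-111952402: agcggagagaacacttttGGCttc
In all 3 the glycine is codon 116 of 117.

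Gabarap led the ATG8 genes and the whole list (chr11:69991143-69994951, plus strand), with 261 TPM in replicate 1 and 348 TPM in replicate 2, and its mean was above that of 95.2% of all detected genes of any type. Gabarapl1 had 31.2 and 33.2 TPM, and Gabarapl2, which encodes GATE-16, had 2.11 and 3.77 TPM. Gabarapl2 was thus under every other ATG8 gene in both libraries, with a log2 ratio of Gabarapl2 to Gabarap of -6.74 ± 0.30 (SD, n = 2). Pseudogenes 96.6% to 99.4% identical to Gabarapl2 over 349 to 352 bases exist in the annotation, and only Gm5829 among them is in the tables, at 0 counts, so reads of Gabarapl2 that match such copies are an uncertainty. Map1lc3b, the LC3 gene whose protein is the usual marker of autophagosomes, had 49.6 and 54.7 TPM, and Map1lc3a had 10.3 and 7.13 TPM. The GABARAP genes held 83.1% of ATG8 TPM in replicate 1 and 86.2% in replicate 2 (84.6 ± 2.2%, SD, n = 2). With counts divided by the longest coding transcript the share was 78.6%. Each of these shares includes all Gabarap reads, most of which were assigned to Gabarap-202, described next. A share with Gabarap-201 alone was not computed.

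The deposited division of Gabarap among its transcripts put most of it on a model that lacks part of the coding sequence. Gabarap-202, 750 bases long, had 90.8% of the gene's TPM in replicate 1 and 91.8% in replicate 2. Gabarap-201, 1351 bases long, which holds the coding end printed above, had 9.15% and 8.15%. This was 23.85 and 28.38 TPM, under the 31.23 and 33.17 TPM of Gabarapl1. Every base of Gabarap-202 is also in Gabarap-201. Gabarap-201 has in addition 496 bases at its 5′ end, 11 bases at its 3′ end, and 94 bases inside, in capitals here. That inner length is not a multiple of 3, so its absence shifts the frame of the bases after it relative to those before. The start codon and frame of Gabarap-202 were not read, so whether it keeps the glycine codon above was not tested.
Gabarap-201, chr11:69992582-69992675 with 12 bases of the mature transcript on each side: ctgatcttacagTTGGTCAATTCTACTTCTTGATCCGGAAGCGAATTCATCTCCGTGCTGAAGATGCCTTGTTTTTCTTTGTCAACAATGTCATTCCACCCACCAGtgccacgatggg
The models differ in their 5′ end and in these 94 bases at once, and the tables give counts per transcript, not per base. Which of these stretches the reads covered therefore was not tested, and the percentages describe the authors' division between models, not a measured rate of skipping.

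Cargo receptors bind ubiquitinated cargo and ATG8 proteins. Sqstm1, which encodes p62 (chr11:50199366-50210827, minus strand), had 132 TPM in replicate 1 and 138 TPM in replicate 2, rank 2 of the list. It shares 580 exon bases on the opposite strand with Mrnip, which had 6.4 and 10.72 TPM. Nbr1 had 43.3 and 46.4 TPM, and Optn, which encodes optineurin, had 29.8 and 29.6 TPM. By gene TPM all 3 receptors were above 29 TPM in both libraries. With counts divided by the longest coding transcript, Sqstm1 had 72.0 and 86.0 TPM, Optn 16.4 and 23.1 TPM, and Nbr1 6.67 and 7.92 TPM. Sqstm1 was 3.06-fold and 2.97-fold above Nbr1 by gene TPM, but 10.8-fold and 10.9-fold above it with counts divided by the longest coding transcript, and 42.5-fold and 30.1-fold over coding transcripts.

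The 3 transcriptional regulators lay within a narrow range. Tfe3 had 51.3 TPM in replicate 1 and 66.0 TPM in replicate 2, Foxo3 had 64.4 and 56.4 TPM, and Tfeb had 72.0 and 57.6 TPM. Tfe3 was below Tfeb in replicate 1 and above it in replicate 2, with a log2 ratio of Tfe3 to Tfeb of -0.15 ± 0.49 (SD, n = 2). Foxo3 was slightly below Tfeb in each library, at a log2 ratio of -0.16 in replicate 1 and -0.03 in replicate 2. With counts divided by its longest transcript of 6848 bases, Foxo3 had 29.0 and 32.0 TPM, at a log2 ratio to Tfeb of -0.92. The relatives of these factors were not all present. Foxo4 had 42.6 and 45.9 TPM, Foxo1 and Mitf were listed at 0 TPM, and Tfec had 0.01 and 0 TPM.

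TFEB and TFE3 are known to bind E-box sequences with the letters CACGTG, and a longer form of that element with the letters GTCACGTG is known from lysosomal genes. RefSeq promoter sequences (GRCm38.p6, 250 bases before to 50 after each gene's start) were matched for 30 of the 36 genes, all but Pik3c3, Becn1, Map1lc3a, Atg16l1, Atg12 and Rb1cc1. On either strand, CACGTG was found in 4 of 30 (13.3%), against 8.09% of 27025 genes, and GTCACGTG, which contains it, in 3 of 30 (10%), against 2.55%. The 4 genes were Atg3, Atg5, Atg7 and Atg14. All act in conjugation except Atg14. The matches, 5′ to 3′ on the gene's strand with the motif in capitals and 12 bases on each side, are shown so that the flanking bases can be compared.
Atg3, chr16:45158723-45158752: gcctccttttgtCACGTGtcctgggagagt
Atg3, chr16:45158746-45158775: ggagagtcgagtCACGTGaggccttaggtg
Atg5, chr10:44268313-44268342: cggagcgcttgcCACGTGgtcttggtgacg
Atg7, chr6:114670952-114670981: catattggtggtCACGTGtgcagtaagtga
Atg14, chr14:47568418-47568447: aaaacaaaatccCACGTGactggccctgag
Atg14 holds the longer form on the opposite strand. The RefSeq starts of Atg3, Atg5 and Atg14 lie 44, 19 and 0 bases from the nearest start of an annotated transcript of the gene. That of Atg7 lies 9066 bases from the nearest one and 27999 bases inside the gene, so the Atg7 match is not at a start of the models measured here. The FOXO letters GTAAACA were in no window of the 30 genes, against 4.05% of genes, which says only that these letters are not in these stretches. A match is a description of letters, and binding was not measured.

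The transcript tables show which annotated models carried these levels. Over all 36 genes, 80.5% of the TPM in replicate 1 and 83.9% in replicate 2 lay on transcripts that the annotation types protein_coding. Of the 32 detected genes, 12 had at least 99% on coding transcripts in both libraries, 8 of which have 1 transcript in the tables. In 5 of 32 (15.6%) coding transcripts held under 50% in both libraries, against 17.5% of detected protein-coding genes, so a low coding share was about as frequent as in other genes. The 5 genes were Rb1cc1, Becn1, Atg7, Atg16l2 and Nbr1. The other types were retained_intron (a model that keeps an intron), processed_transcript (no coding sequence annotated) and nonsense_mediated_decay (an early stop codon).

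**Figure D2:**
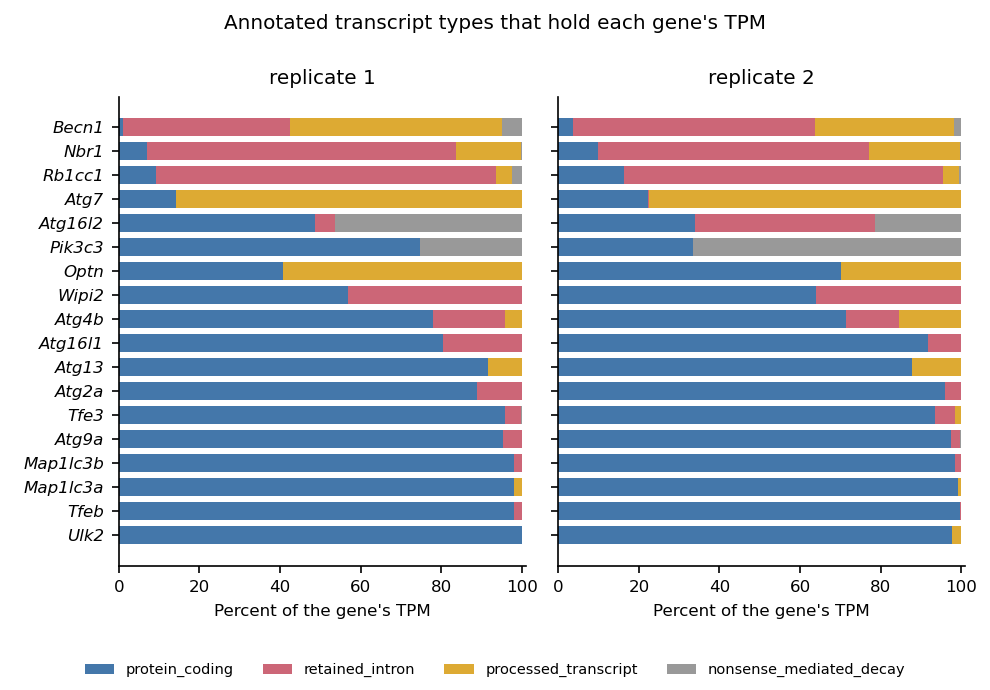
Percent of each gene's TPM on transcripts of 4 annotated types, replicate 1 left and replicate 2 right, for the detected members with a mean coding share under 99%. Becn1, Nbr1, Rb1cc1 and Atg7 have coding shares under 25% in both libraries, and Optn, Pik3c3, Becn1 and Atg16l2 change their main type between the libraries.

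Becn1 was the extreme case. Becn1-211 (retained_intron, 487 bases) held 36.7% of its TPM in replicate 1 and 50.5% in replicate 2, and Becn1-209 (processed_transcript, 463 bases) held 52.7% and 34.4%. Transcripts typed protein_coding held 1.05% and 3.77%. All but 5 bases of Becn1-211 lie in exons of coding Becn1 transcripts, so nearly all of its reads could also come from those. Divided by the longest coding transcript, of 4365 bases, the counts of Becn1 gave 11.99 and 12.37 TPM. That was 8.96-fold and 8.09-fold under the deposited level, and the rank of Becn1 fell to 16 of 36. The model used, Becn1-205, itself held 71.2 of 2827 counts in replicate 1 and 196 of 3690 in replicate 2. The coding model Becn1-217 has 1493 bases, and a shorter divisor gives a higher level. Becn1 also shares 3104 exon bases with Cntd1 on the opposite strand, but Cntd1 itself had 0.02 and 0.03 TPM.

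Atg7 and Nbr1 were of the same kind. Atg7-213 (processed_transcript, 408 bases) held 81.0% of Atg7 TPM in replicate 1 and 67.7% in replicate 2, from 645 and 596 expected counts. The coding Atg7-201 (3761 bases) held 12.9% and 16.2% of the TPM from 1407 and 1981 counts. Most counts of Atg7 thus lay on the coding transcript and most TPM on the short one, since TPM divides by length. Coding transcripts held 66.9% and 73.9% of Atg7 counts, and the level by the longest coding transcript was 10.2 and 10.8 TPM.

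Nbr1-216 (retained_intron, 639 bases) held 76.0% of Nbr1 TPM in replicate 1 and 66.8% in replicate 2. Of its bases 222 lie outside every coding exon of Nbr1. The border is printed because reads in the capitals lie outside every coding exon. Lower case is exon and capitals are the intron that the model keeps, opening with the GT of a splice donor, 5′ to 3′ on the plus strand (GRCm38, GENCODE M21).
Nbr1-216, chr11:101576380-101576439: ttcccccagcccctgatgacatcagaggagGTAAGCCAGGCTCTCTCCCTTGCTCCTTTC
Wipi2-204, chr5:142658259-142658318: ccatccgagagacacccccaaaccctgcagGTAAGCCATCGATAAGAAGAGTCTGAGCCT
Wipi2-204 (retained_intron, 3244 bases) is the corresponding model of Wipi2, where it held 36.8% in replicate 1 and 25.1% in replicate 2. Over coding transcripts, Wipi2 had 4.97 and 6.97 TPM. By the longest coding transcript Nbr1 had 6.67 and 7.92 TPM, which placed it at rank 24 in place of rank 10.

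Rb1cc1-213 (retained_intron, 1151 bases) held 84.0% of Rb1cc1 TPM in replicate 1 and 78.6% in replicate 2. The coding Rb1cc1-201 (7607 bases) held 9.35% and 15.7%. Rb1cc1 shares 558 exon bases on the opposite strand with 4732440D04Rik, which had 13.89 TPM in replicate 1 and 12.65 TPM in replicate 2. Whether reads of both genes were told apart is not known, since the use of strand is not given. By the longest coding transcript the scaffold gene had 1.54 and 1.73 TPM. In these 4 genes, Rb1cc1, Becn1, Atg7 and Nbr1, the gene TPM was at least 2-fold over that level in both libraries, which was 4 of 32 detected members (12.5%), against 18.6% of detected protein-coding genes. Some models typed protein_coding were also short. Atg9a-202 (457 bases) held 41.3% of Atg9a TPM in replicate 1 and 25.0% in replicate 2, and Foxo3-205 (514 bases) held 31.8% and 17.2% of Foxo3. The longer Foxo3-204 (2535 bases) led Foxo3 with 37.3% and 41.1%, and Foxo3-203 (6848 bases) held 29.5% and 40.9%.

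**Figure D3:**
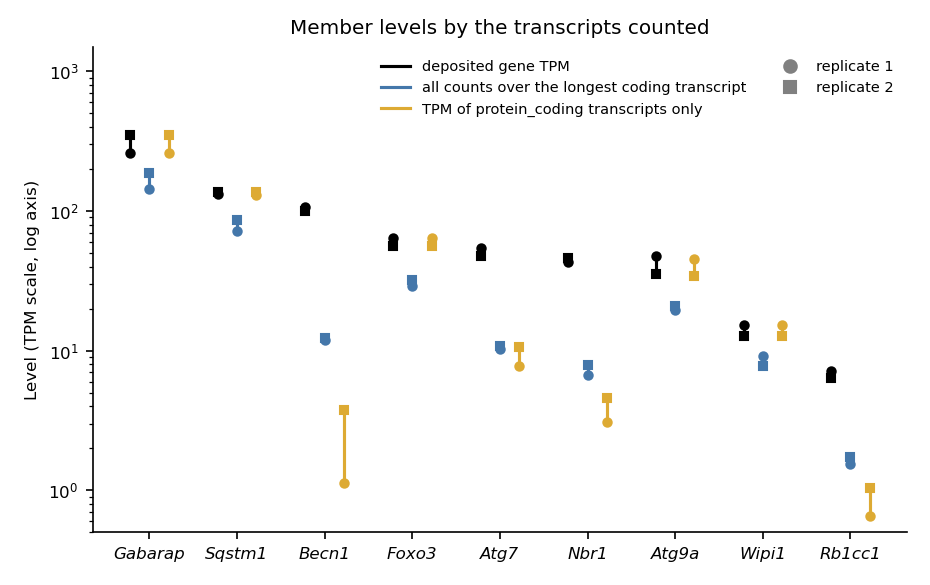
Level on a log axis of the 9 detected members whose deposited TPM was at least 1.5-fold over the level by the longest coding transcript in both libraries: deposited gene TPM in black, all counts over the longest coding transcript in blue, TPM of protein_coding transcripts alone in yellow, with circles for replicate 1 and squares for replicate 2. Becn1 lies at 100.1 TPM or more in black, near 12 TPM in blue and below 4 TPM in yellow. Gabarap is highest by each of the 3 measures, and its protein_coding TPM lies mostly on Gabarap-202.

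In some members the leading transcript differed between the libraries. Of Becn1, processed_transcript models held 52.7% in replicate 1, and retained_intron models held 60.0% in replicate 2. Of Atg16l2, protein_coding models held 48.6% in replicate 1, and retained_intron models held 44.7% in replicate 2. Atg9a-202 led Atg9a in replicate 1 with 41.3%, against 20.6% for Atg9a-205, and Atg9a-205 led in replicate 2. Optn-204 (processed_transcript, 697 bases) held 57.4% of Optn in replicate 1 and 28.1% in replicate 2, and the coding Optn-202 held 40.8% and 70.2%. The gene TPM of Optn was nevertheless nearly equal, at 29.8 and 29.6 TPM. Pik3c3-203 (protein_coding) held 64.3% of Pik3c3 in replicate 1 and 13.8% in replicate 2, and Pik3c3-204 (nonsense_mediated_decay) held 25.3% and 66.6%. Coding transcripts of Pik3c3 thus had 1.24 and 1.09 TPM, while its gene TPM was 1.65 and 3.27. Both models are alike over most of their length, since 73 of 3144 bases of Pik3c3-204 lie outside exons of coding transcripts. Sqstm1 was split between coding models, with Sqstm1-205 at 64.9% and 41.4% and Sqstm1-202 at 33.3% and 57.3%. Tfeb-202 held 73.6% and 64.6% of Tfeb, and Tfeb-212 held 23.6% and 32.1%. Ulk1, Atg101, Atg12, Atg14, Atg5, Atg2b, Atg4d and Gabarapl1 have 1 transcript each in the tables, so their 100% on coding transcripts is fixed by the annotation. Wipi1, with 4 models, had 100% on coding transcripts in both libraries.

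The libraries were also set against each other, gene by gene, with an exact conditional binomial test (two-sided) on expected counts. Its p-values were adjusted by the Benjamini-Hochberg method over 11636 genes, and a gene was called at an adjusted p under 0.05 and at least 2-fold. The spread it allows for is counting error alone, so it speaks of this pair of libraries and of no condition. Of 35 autophagy genes with 10 or more counts in a library, 1 was called, against 5.77% of all genes tested. This was Atg10, with 30 counts in replicate 2 and 9 in replicate 1, a log2 ratio of 1.24 in scaled counts (exact test, adjusted p = 0.0351). Atg10 was not called by the edgeR negative binomial exact test with a dispersion common to all genes. That test called 0.980% of all genes and no member. Its dispersion was estimated from these same 2 libraries taken as 1 group, so their difference also set the noise. It is therefore no independent check. At a minimum of 50 counts in a library, Atg10 was left out before testing, and 4.16% of genes tested and no member were called. The log2 ratios of the 35 genes, replicate 2 over replicate 1, ran between -0.69 and 1.24 with a median of 0.03, and the median over all genes tested was 0.01. At 1.5-fold, 5 of 35 members passed, against 14.7% of genes, with Atg16l1, Gabarapl2 and Pik3c3 higher in replicate 2 along with Atg10, and Map1lc3a higher in replicate 1. Without a fold minimum 24 of 35 members passed, against 64.8% of genes, so most genes tested differed by more than counting error.

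**Figure D4:**
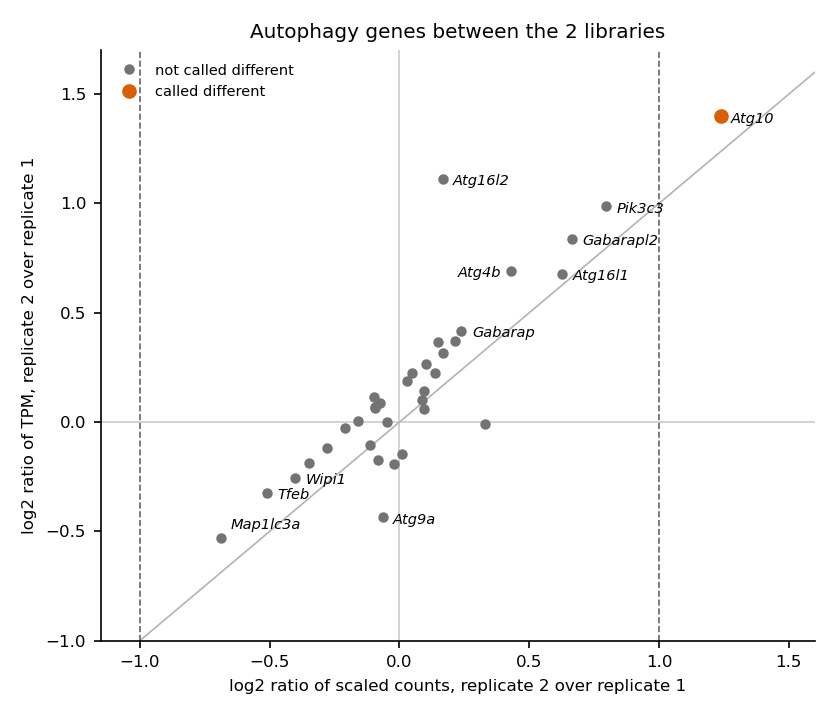
Each of 35 tested members by its log2 ratio of scaled counts (horizontal) and of TPM (vertical), replicate 2 over replicate 1; dashed lines mark 2-fold and the diagonal marks equal ratios. Atg10 alone passes 2-fold in counts, while Atg16l2 stands at 0.17 in counts and above 1 in TPM.

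TPM and counts could differ in this comparison. Atg16l2 had 192 counts in replicate 2 and 121 in replicate 1, a log2 ratio of 0.17 after scaling, but 2.83 TPM in replicate 2 and 1.31 TPM in replicate 1. Atg16l2-203 (retained_intron, 518 bases) took 33.9% of the gene in replicate 2 and 0% in replicate 1. Its coding transcripts had 0.96 TPM in replicate 2 and 0.64 TPM in replicate 1. Atg9a had 35.3 TPM in replicate 2 and 47.7 TPM in replicate 1, with a log2 ratio of -0.06 in scaled counts.

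The genes of the pathway around the list were looked at by group. All 12 other initiation and early genes and all 13 genes of fusion and tethering were detected, as were 16 of 20 selective autophagy receptors and partners, 26 of 30 lysosomal genes and 4 of 8 regulators. None of the 17 selective, 12 early, 13 fusion and 5 regulator genes tested was called between the libraries. The lists are small, and only 5.77% of all genes tested were called. Nrbf2, a partner of the lipid kinase complex, led the early genes at 92.2 TPM in replicate 1 and 70.9 TPM in replicate 2, and Tecpr1 was lowest at 5.71 and 6.97 TPM. By gene TPM the early genes outside the list were thus all above Pik3c3 and Atg14. By the longest coding transcript Nrbf2 had 61.0 and 53.1 TPM.

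Among selective receptors, the mitochondrial protein Fkbp8 had 1479 TPM in replicate 1 and 942 TPM in replicate 2, Phb2 had 458 and 568 TPM, and Bnip3 had 127 and 134 TPM. Fkbp8 and Phb2 were above every one of the 36 autophagy genes. Retreg1, Stbd1 and Wdfy3 were listed at 0 TPM in both libraries. Bnip3l, which encodes NIX, the receptor known for mitochondrial clearance in reticulocytes, had 41.4 and 45.4 TPM; it was named after its value was seen. Of the fusion genes, the SNARE gene Vamp8 had 145 and 263 TPM, Rab7 had 59.1 and 56.8 TPM and Vps41 had 1.65 and 2.04 TPM. Of the lysosomal genes, Lamp1 had 146 and 232 TPM, the proton pump subunit Atp6v1b2 had 198 and 175 TPM, the calcium channel gene Mcoln1 had 176 and 146 TPM, and Hexa had 0.06 and 0.05 TPM. Several of these levels were lower when counts were divided by the longest coding transcript, which lowers any gene whose TPM lies on shorter models. By that measure Mcoln1 had 24.2 and 22.2 TPM, Atp6v1b2 had 50.4 and 56.5 TPM, and Vamp8 had 51.6 and 93.7 TPM. Bnip3 had 43.1 and 46.7 TPM, and Fkbp8 had 839 and 649 TPM, still above every one of the 36 genes. Of Atp6v1b2, coding transcripts held 10.1% and 17.9% of the gene TPM.

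**Figure D5:**
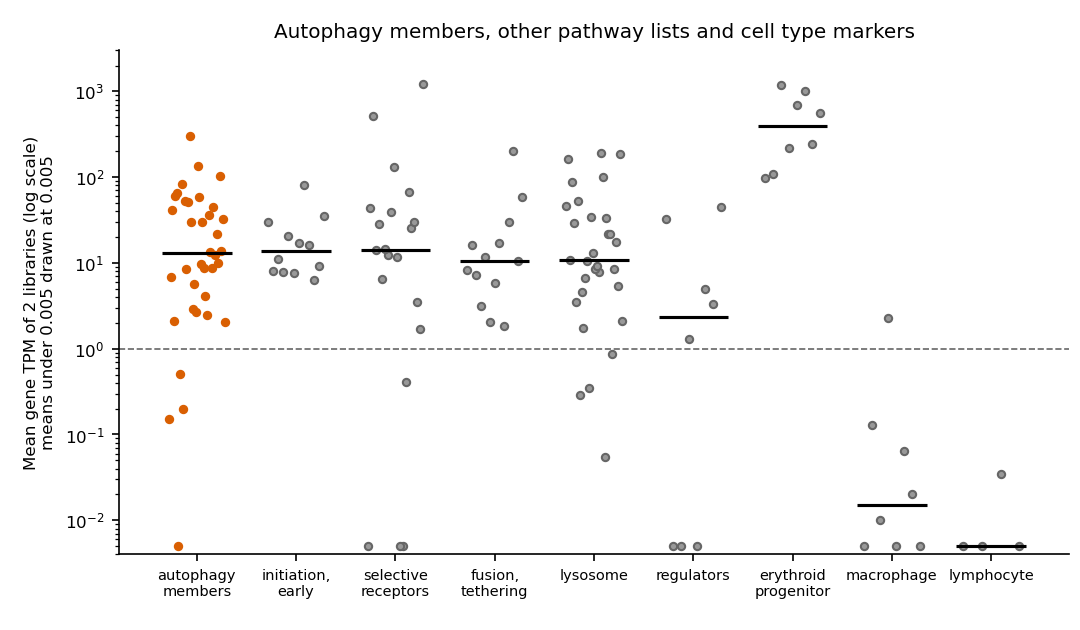
Mean TPM over both libraries on a log axis for the 36 autophagy genes, for 5 lists of other pathway genes and for 3 marker lists; bars are medians, the dashed line marks 1 TPM and means under 0.005 are drawn at 0.005. The members span from 0 to 304 TPM, and their range covers that of the fusion, early and lysosomal lists, while macrophage and lymphocyte markers lie near 0.

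Base composition varied with level along the list. Across the 32 detected genes, the GC content of the leading transcript had a Spearman correlation with TPM of 0.59 in replicate 1 and 0.56 in replicate 2, and across 8500 detected protein-coding genes it was 0.40 and 0.36. These are descriptions across genes of the same libraries, which are not independent, and the part of GC content in the levels was not tested.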

How the data were processed

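Polyadenylated RNA of G1E cells was measured in 2 libraries of 1 group. Per the deposited descriptions, reads were mapped to mm10 with annotation M4; neither aligner nor counter is given in the sources used here. The authors' expected counts divide shared reads by a model, and the deposited TPM values are scaled by effective length and library total. The deposited percent per transcript is its part of the gene's TPM, and the authors' score columns (credibility bounds) are not reported. Symbols, types, positions and sequences are from GENCODE M21 on the same assembly (97.96% of 43346 entries matched); promoters are RefSeq's. A further 26345 entries are no annotated genes and were left out; they held 0 and 1 counts.

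Expected counts were rounded to whole numbers and scaled by TMM (edgeR 4.0.16, R 4.3.3), and tested in Python 3.11.15 (SciPy 1.17.1, pandas 2.3.3, NumPy 2.4.6, matplotlib 3.10.9) by an exact conditional binomial test at 10 or more counts in a library. With 2 libraries in 1 group no quasi-likelihood test has residual degrees of freedom. The test was checked on simulated counts that held counting error alone, as the test assumes. That check therefore does not cover the larger spread between these libraries. The level by the longest coding transcript is TPM times the gene's effective length over that of its longest protein_coding transcript. It lies under the gene TPM wherever the gene's effective length is the shorter one, so a lower value follows from the lengths of the models. Median levels were compared on log2(TPM + 1). Limits on counts of 0 and the exact test cover counting error only, since read pairs are not independent molecules.

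The members and lists were chosen with earlier results of these data known. All 36 members are described; of the other lists the 3 highest, 2 lowest and called genes are named, except for a result that is not reported here; of transcripts, the leading one and any other with 20% or more in both libraries. Other transcripts named beside them, and Tfec, were chosen after their values were seen. Alternatives tried were other scalings, filters, fold minimums, detection thresholds, posterior mean TPM, coding transcripts only and the longest coding transcript, the last 2 for some results after seeing the data.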

Additional observations from a re-analysis of the deposited data

How the results depend on the processing

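Detection of the members stayed between 25 (at 5 TPM) and 32 genes under every alternative, and that of the 83 other pathway genes between 60 and 73, against 71. The median of the members over all protein-coding genes, 3.75 on log2(TPM + 1), became 6.64 with a pseudocount of 0.1, 3.54 with posterior mean TPM, 3.33 over protein_coding transcripts, 3.42 by the longest coding transcript and -0.049 among detected genes alone. Calls between the libraries (1 member) were 0 at 50 counts, a filter that left Atg10 out before testing, and 0 by the edgeR exact test. They were 5 at 1.5-fold and 24 with no fold minimum. By the longest coding transcript, chosen after seeing the data, the GABARAP share was 78.6%, and log2 ratios were 1.59 for Atg2a to Atg2b, 7.77 for Atg9a to Atg9b, -0.10 for Wipi2 to Wipi1, 2.69 for Atg16l1 to Atg16l2, -5.87 for Gabarapl2 to Gabarap, 3.44 for Sqstm1 to Nbr1, 2.01 for Sqstm1 to Optn and -0.92 for Foxo3 to Tfeb. Over protein_coding transcripts they were 1.69 for Atg2a to Atg2b, 9.79 for Atg9a to Atg9b, -1.24 for Wipi2 to Wipi1, 3.17 for Atg16l1 to Atg16l2, 5.16 for Sqstm1 to Nbr1 and 3.08 for Sqstm1 to Optn. Posterior mean TPM gave 7.63 for Atg9a to Atg9b and 1.77 for Atg16l1 to Atg16l2. Tfe3 to Tfeb ran from -0.49 to 0.20 with either library left out, so its direction reversed. Beyond these constructions the cause was not tested. No paired analysis was possible because the libraries form 1 group.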
